A study of Mus musculus with 8 samples.

Results

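The 10 genes described here encode the growth hormone receptor (Ghr), the kinases Jak1 and Jak2, the transcription factors Stat5a, Stat5b and Stat3, the feedback inhibitors Socs2, Socs3 and Cish, and the hormone Igf1. They were found by gene symbol, each in 1 row of a table of 23930 genes, so 10 of 10 were measured. The set was chosen by function and from earlier KO against WT differences in these same libraries. The KO against WT values of these genes are therefore given as a description, and nothing is supported with them.

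Growth hormone is made in the pituitary and acts through a receptor that has no kinase activity of its own. The receptor binds JAK2, which phosphorylates the receptor tail and STAT5A and STAT5B, and the phosphorylated STAT5 proteins enter the nucleus and switch on genes such as Igf1, Socs2 and Cish. STAT3 is a related factor that is activated mainly by cytokines of the interleukin-6 family through receptors bound to JAK1. The SOCS proteins and CISH bind the activated receptors or kinases and turn the signal down. In skeletal muscle, the pathway is known for its part in postnatal growth and in local IGF1 production. Much of its activity is carried by phosphorylation, which was not measured here.

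RNA of tibialis anterior muscle, which flexes the foot and is made mostly of fast fibres, was measured in 4 KO and 4 WT libraries. KO mice carried floxed Sdhc, which encodes a membrane subunit of succinate dehydrogenase (mitochondrial complex II), and an inducible Cre recombinase driven by the human skeletal actin promoter, which is active in muscle fibres. WT controls were littermates with the same Cre and no floxed allele. Tamoxifen was given to all mice when they were 12 weeks old, with collection of the muscle 20 weeks afterwards. The labels name the C57BL/6 background for WT and C57BL/7 and C57BL/8 for KO, whereas the growth protocol names C57/B6 for all. They give no sex and do not say that each library was a separate animal. Other cells of the muscle keep Sdhc in this model.

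Each gene was read through 1 amplified segment, and values are RPM (reads per 1000000 reads). Totals were 4.77 to 7.28 M reads (M, 1000000), at which the floor of 3 reads lay between 0.412 and 0.628 RPM. Sdhc was 696 ± 91.8 RPM in WT and 26.0 ± 16.0 RPM in KO (SD, n = 4 each; two-sided p = 0.0286 in an exact permutation test, which 4 against 4 cannot go below). Xist was 77.3 RPM in WT 1 and 98.9 RPM in KO 4 and at most 0.334 RPM in the other 6 libraries, while Ddx3y was at 0 in those 2 libraries only. Both groups therefore hold 1 library with this pattern. The muscle fibre markers Acta1, Ckm, Myh4, Myh1, Tnnt3, Pvalb and Mb were present in every library, with a summed level of 102380 to 150159 RPM in WT and 78065 to 124465 RPM in KO.

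Fold changes are log2 differences, KO minus WT, on log2(RPM + 1). Genes that reached 1 RPM in 4 or more libraries were tested (11087), and their median was 0.13 on that scale. Each fold change below is given relative to that median unless named unshifted, and every limma p belongs to the unshifted value. Of the 10 genes, 7 passed that filter on low values, and Socs2, Socs3 and Cish did not. Of these 7, 0 were called higher and 1, Stat5b, was called lower at a limma adjusted p under 0.05. Over all genes tested, 0.523% were called higher and 0.28% lower. At an unadjusted p under 0.05, on the scale not shifted by the median, the same fit passed 1 of the 7, Stat5b. Beside it stood 16.1% of all genes in either direction. The libraries of the 2 groups did not overlap for Stat5b, which was lower in KO, and overlapped for the other 6. Without overlap, 7.5% of all genes tested were higher in KO and 1.61% lower. Because the genes were chosen with this contrast known, nothing is read from these counts. The median relative fold change of the 7 genes was -0.12.

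**Figure D1:**
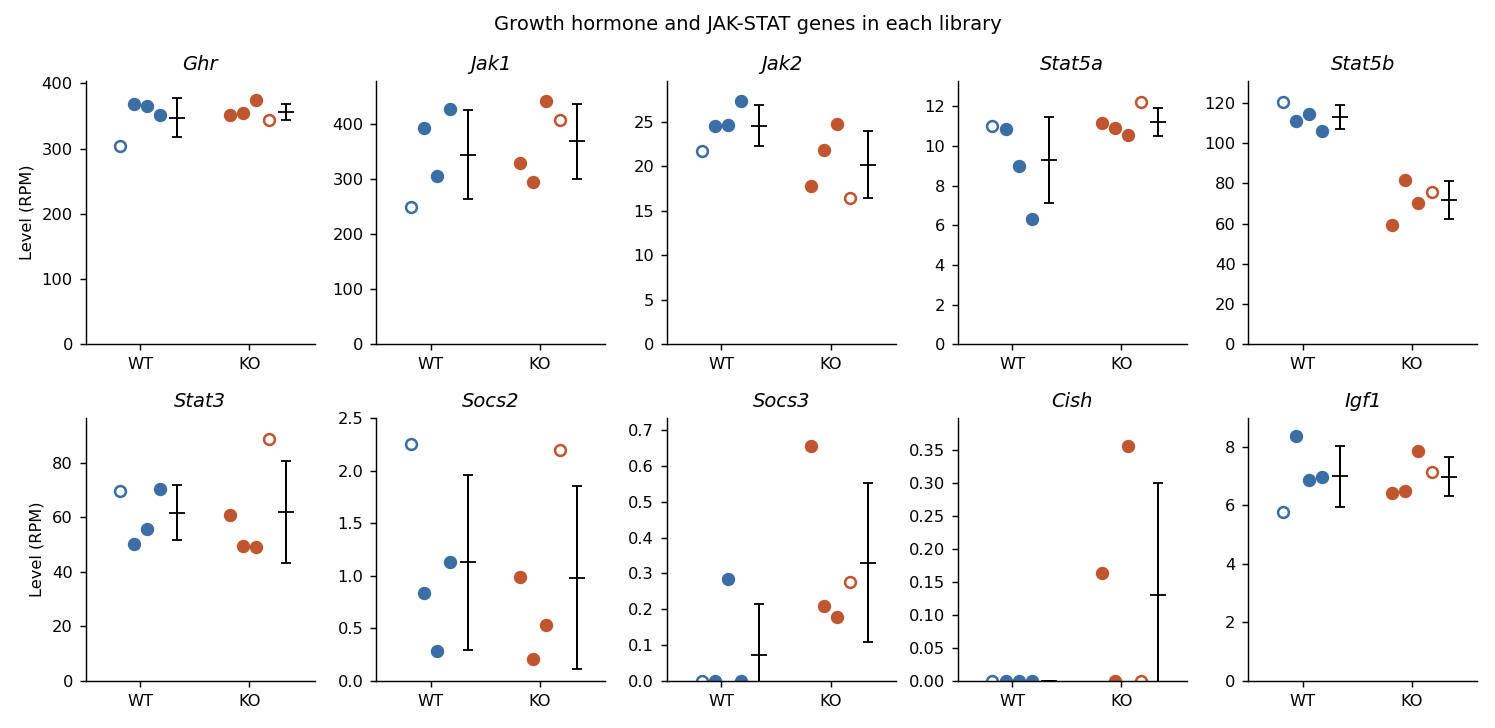
Level of each of the 10 genes in RPM (vertical axis, from 0, a scale of its own for each gene) in the 4 WT and 4 KO libraries. Points are libraries, open where Xist was above 10 RPM, and bars give the mean and SD, cut at 0. The KO libraries lie at 59.3 to 81.5 RPM for Stat5b, below all WT libraries, and the groups overlap for the other 9 genes.

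Stat5b encodes one of the paired STAT5 proteins, the main carriers of the growth hormone signal to the nucleus. Its level was 120.4, 111, 114 and 106 RPM in WT 1 to WT 4. It was 59.3, 81.5, 70.3 and 75.5 RPM in KO 1 to KO 4. The highest KO library, KO 2, lay below the lowest WT library, WT 4, and KO 1 was the lowest of all 8. The mean was 113 ± 6.06 RPM in WT and 71.7 ± 9.41 RPM in KO (SD, n = 4 each), so that KO stood at 63.4% ± 8.33 of the WT mean. The 4 WT libraries held 2976 Stat5b reads together and the 4 KO libraries 1694. In whole muscle, fewer cells that express a gene and less of its RNA in each cell cannot be told apart.

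The relative log2 fold change of Stat5b was -0.78 (SE 0.13, 95% interval -1.06 to -0.50), lower in 4 of 4 KO libraries. The limma adjusted p of 0.0252 over all genes tested belongs to the unshifted value of -0.66. By its p-value Stat5b stood at rank 57 of 11087, which is a description only, since the gene was chosen with this contrast known. On whole reads recovered from the RPM, the edgeR quasi-likelihood adjusted p was 0.00913, where 0.496% of all genes were called lower, and the DESeq2 adjusted p was 8.2e-06. Over 19 alternative settings the relative fold change ran from -0.85 to -0.70, and the call held in 12. It was lost with no filter on low values (adjusted p = 0.147), without both WT 3 and KO 3 (adjusted p = 0.229), and in 5 of the 8 fits that left out 1 library. Those 5 limma fits gave adjusted p = 0.108 without KO 1, 0.0719 without KO 3, 0.0751 without WT 2, 0.117 without WT 3 and 0.0529 without WT 4. With the 2 libraries high in Xist left out, the relative fold change was -0.78 and the limma adjusted p was 0.0203.

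**Figure D2:**
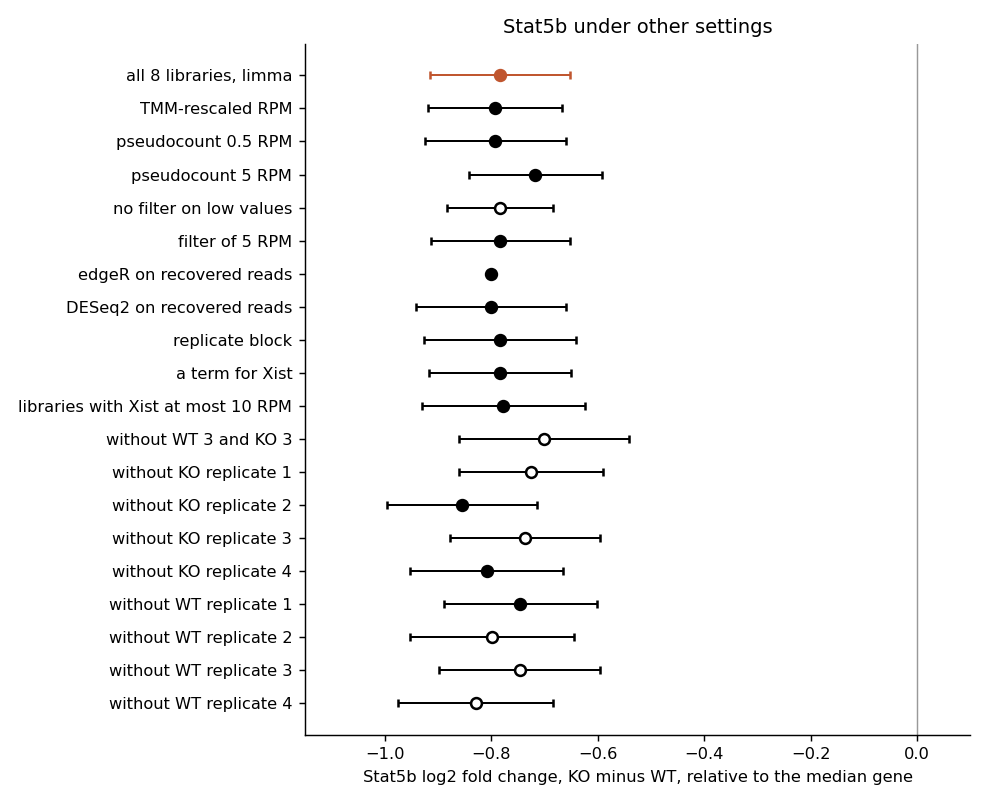
Relative log2 fold change of Stat5b, KO minus WT (horizontal axis), under the limma fit of all 8 libraries and 19 other settings (rows). Bars are the SE where the tool gives one, filled symbols are calls at an adjusted p under 0.05 and open symbols are not. All values lie between -0.85 and -0.70, while the call was kept in 12 of the 19.

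Stat5a encodes the partner of STAT5B, which forms the same kind of dimer and binds the same DNA sequence. Its level was 11.0, 10.9, 8.98 and 6.32 RPM in WT 1 to WT 4. It was 11.2, 10.9, 10.5 and 12.2 RPM in KO 1 to KO 4. WT 4 lay lowest, and WT 1 and WT 2 lay inside the KO range. The relative log2 fold change was 0.15 (95% interval -0.24 to 0.53, limma adjusted p = 0.473), and it was -0.025 without WT 4. The interval of Stat5a therefore ended above 0, whereas that of Stat5b ended below it. The difference between both fold changes was not tested.

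Stat5b, Stat5a and Stat3 lie side by side on mouse chromosome 11. In GRCm38 with the GENCODE M21 annotation, Stat5b spans chr11:100780731-100850724 on the minus strand, Stat5a chr11:100859351-100885169 on the plus strand and Stat3 chr11:100885098-100939540 on the minus strand. The gap from Stat5b to Stat5a is 8626 bases, and the 3′ ends of Stat5a and Stat3 share 72 bases on opposite strands. The longest run of identical bases between the Stat5b transcript (5213 bases) and a Stat5a transcript was 324 bases, and 5.18% of the 100-base windows of Stat5b also occurred in Stat5a. Amplicon positions and strand use are not stated in the labels, so whether these neighbours share reads was not tested.

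Within 200 kb on either side of Stat5b, 10 other genes passed the filter, a span chosen after the Stat5b value was seen. Of these, 0 were called, beside 0.523% called higher and 0.28% called lower of all genes tested. Below WT without overlap lay 0 of the 10, beside 1.61% of all genes. At such shares a count of 0 among 10 genes is usual, so nothing is read from these counts. Their relative log2 fold changes ran from -0.61 for Cnp, a myelin enzyme (limma adjusted p = 0.212), to 0.50 for Ghdc (limma adjusted p = 0.157), with a median of 0.014. In unscaled RPM, Ghdc was higher in every KO library than in any WT library.

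**Figure D3:**
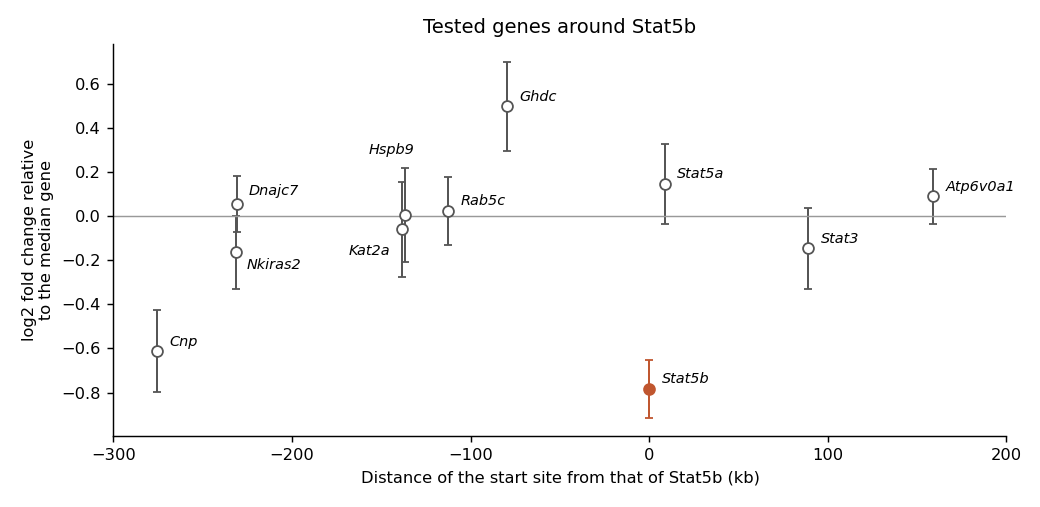
Relative log2 fold change, KO minus WT (vertical axis), of the 11 tested genes around Stat5b against the distance of each gene's start from that of Stat5b in kb (horizontal axis, higher coordinates to the right). Bars are the SE, and the filled symbol is the gene called at an adjusted p under 0.05. Stat5b stands at -0.78, its direct neighbour Stat5a at 0.15 and Stat3 at -0.15.

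Stat3 carries the signal of interleukin-6 type cytokines. Its level was 69.8, 50.4, 55.9 and 70.6 RPM in WT 1 to WT 4. It was 61.0, 49.4, 49.1 and 88.9 RPM in KO 1 to KO 4. KO 4, one of the libraries high in Xist, held the highest value, and KO 2 and KO 3 held the lowest. The means were 61.7 ± 10.1 RPM in WT and 62.1 ± 18.7 RPM in KO (SD, n = 4 each). The relative log2 fold change was -0.15 (95% interval -0.53 to 0.24, limma adjusted p = 0.972), so that a change of the size of that in Stat5b lay outside the interval.

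Ghr encodes the growth hormone receptor and spans chr15:3317760-3583492 on the minus strand. Its level was 304, 369, 365 and 352 RPM in WT 1 to WT 4. It was 352, 355, 374 and 344 RPM in KO 1 to KO 4. WT 1 was the lowest library, and the other 7 lay between 344 and 374 RPM. The means were 347.5 ± 29.6 RPM in WT and 356 ± 12.9 RPM in KO (SD, n = 4 each). Relative to the median gene, its log2 fold change was -0.087, with a 95% interval of -0.34 to 0.16 (limma adjusted p = 0.901).

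Jak2 encodes the kinase bound to the growth hormone receptor and spans chr19:29251828-29313080 on the plus strand. Its level was 21.7, 24.5, 24.7 and 27.4 RPM in WT 1 to WT 4. It was 17.7, 21.8, 24.8 and 16.5 RPM in KO 1 to KO 4. KO 1 and KO 4 lay below every WT library, and KO 2 and KO 3 lay inside the WT range, KO 2 just above WT 1. The relative log2 fold change was -0.41 (SE 0.16, 95% interval -0.75 to -0.07). The limma p belongs to the unshifted value, -0.28 (95% interval -0.62 to 0.055, unadjusted p = 0.0952, adjusted p = 0.392). In edgeR the unadjusted p was 0.0114 and the adjusted p 0.215. When RPM were rescaled by TMM factors, a comparison added after the data were seen, Jak2 was 22.9, 25.1, 27.5 and 27.3 RPM in WT 1 to WT 4. It was 18.1, 21.0, 21.8 and 15.8 RPM in KO 1 to KO 4, so that all KO libraries then lay below all WT libraries. With that rescaling 2 of the 7 genes, Stat5b and Jak2, were lower without overlap, beside 3.72% of all genes tested.

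Jak1, the kinase of the interleukin-6 and interferon receptors, spans chr4:101152367-101265282 on the minus strand and overlaps Raver2 on the other strand. Its level was 249, 392, 306 and 427 RPM in WT 1 to WT 4. It was 329, 295, 440.5 and 406 RPM in KO 1 to KO 4. The libraries of both groups were spread over the same range, with WT 1 lowest at 249 RPM and KO 3 highest at 440.5 RPM. The relative log2 fold change was -0.015 (95% interval -0.38 to 0.35, limma adjusted p = 0.790), and its sign changed in 5 of the 19 alternative settings.

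Igf1 encodes the growth factor through which much of the growth hormone effect on tissues is carried, and it spans chr10:87858265-87937042 on the plus strand, overlapping Igf1os on the other strand. Its level was 5.78, 8.35, 6.84 and 6.96 RPM in WT 1 to WT 4. It was 6.41, 6.49, 7.85 and 7.14 RPM in KO 1 to KO 4. All 4 KO libraries lay inside the WT range. The means were 6.98 ± 1.05 RPM in WT and 6.97 ± 0.672 RPM in KO (SD, n = 4 each), from 182 and 166 reads. Its relative log2 fold change was -0.12 (95% interval -0.49 to 0.24, limma adjusted p = 0.994). This amplicon cannot separate the splice forms of Igf1.

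The feedback genes Socs2, Socs3 and Cish were near the limit of detection in both groups. Socs2, an inhibitor of the growth hormone receptor that is itself a STAT5 target, was 2.26, 0.835, 0.285 and 1.13 RPM in WT 1 to WT 4. It was 0.986, 0.209, 0.535 and 2.20 RPM in KO 1 to KO 4. WT 1 and KO 4, the 2 libraries high in Xist, held the highest values, with 16 reads each, and the other 6 libraries held 1 to 7 reads. Socs2 lay within the same range in both groups, and without the filter its relative log2 fold change was -0.24 (limma adjusted p = 1).

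Socs3, the inhibitor induced by STAT3, had 0 reads in WT 1, WT 2 and WT 4 and 2 in WT 3, or 0.285 RPM. It had 4, 1, 1 and 2 reads in KO 1 to KO 4, or 0.178 to 0.657 RPM. Cish, the inhibitor most directly switched on by STAT5, had 0 reads in all WT libraries and in KO 2 and KO 4, 1 read in KO 1 and 2 reads in KO 3. Both genes lay at or near the floor of 3 reads in either group, so no fold change is given, and a difference was not detectable at this depth. Socs2 spans chr10:95385362-95417180 and Socs3 chr11:117966079-117970047, both on the minus strand. Cish spans chr9:107296026-107302784 on the plus strand and overlaps Gm17040 and Gm17041 on the other strand.

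STAT dimers bind a short palindrome, and the stretches of the Cish and Socs3 promoters that hold it are shown because these genes are known STAT targets. RefSeq promoter windows on GRCm38.p6, from 250 bases before to 50 after each annotated start, were searched for TTCNNNGAA, which reads the same on both strands. Windows were found for 9 of the 10 genes (12 windows), Socs2 being the other. Capitals mark the matches.

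Cish, chr9:107296629-107296683, plus strand: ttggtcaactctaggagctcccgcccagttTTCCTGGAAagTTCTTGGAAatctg

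Socs3, chr11:117969482-117969550, minus strand: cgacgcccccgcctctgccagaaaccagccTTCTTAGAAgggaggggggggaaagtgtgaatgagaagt

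The window of Cish held 2 matches that did not overlap, TTCCTGGAA at the annotated start and TTCTTGGAA 11 bases after it. The window of Socs3 held 1, TTCTTAGAA, which began 154 bases before the RefSeq start. Both printed stretches lie inside the gene spans given above, because the RefSeq starts used here lie within those GENCODE spans. No match lay in the windows of the other 7 genes, which says only that these letters are absent from those windows. Of all 32851 promoter windows, 8.30% held at least 1 match and 0.457% held 2 or more. A match is a string of letters and is not evidence that STAT proteins bound there in this muscle.

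Among the 7 genes above the filter, deviations from the group means were compared over the 8 libraries as a description of 21 pairs. The closest pairs were Jak1 and Igf1 (r = 0.82), Ghr and Igf1 (r = 0.80) and Ghr and Jak1 (r = 0.62). The most opposed were Jak2 and Stat3 (r = -0.68), Ghr and Stat3 (r = -0.59) and Jak2 and Stat5a (r = -0.58). Stat5a and Stat5b had r = 0.30. The values of a pair share library, total and scaling, which by themselves can move such coefficients.

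The wider pathway was taken as a list of 89 other genes (ligands, receptors, kinases, STAT and SOCS genes, inhibitors, response genes and IGF1 binding proteins), of which 86 were measured and 62 tested. Of these, 1 rose (Igfbp7) and 0 fell at a limma adjusted p under 0.05, beside 0.523% and 0.28% of all genes tested. At an unadjusted p under 0.05, 10 of the 62 were higher and 1 was lower, beside 13.1% and 3.07% of all genes tested. Without overlap in unscaled RPM, 4 of the 62 were higher in KO (Stat2, Mcl1, Igfbp7 and Stc2). In the same way 1 was lower (Socs7), beside the 7.5% and 1.61% of all genes. The counts at an unadjusted p and those without overlap are near the shares over all genes, and 1 called gene is too few to compare. This list was also chosen with earlier results of these data known, so its counts and the Igfbp7 call are a description. Stc2 reached 1 RPM in KO libraries only, so it passed the filter through the group in which it is high, and its place in these counts rests on that. The median relative log2 fold change of the 62 was 0.04. The remaining 24 lay below the filter, none above 1.26 RPM in any library.

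Of 11 ligand genes measured, 9 lay below the filter. Over all 8 libraries growth hormone (Gh) and prolactin (Prl) had 3 reads each, interleukin-6 (Il6) 7, oncostatin M (Osm) 1 and erythropoietin (Epo) 0. Lif had 33 reads, Lep 13, Clcf1 10 and Il11 4. Whether such low counts reflect little RNA or the single amplicon of each gene was not tested. Ctf1, the gp130 cytokine cardiotrophin, was 2.27 to 5.22 RPM in WT and 1.79 to 6.04 RPM in KO, a relative log2 fold change of -0.52 (limma adjusted p = 0.508). Il15, a cytokine known to be made by muscle, was 19.9 ± 5.04 RPM in WT and 21.9 ± 2.58 RPM in KO (SD, n = 4 each; limma adjusted p = 0.709).

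Of the 18 tested receptors, 0 passed, beside 0.523% called higher and 0.28% called lower of all genes tested. The smallest p-values were those of Ifngr1 and Ifngr2, the chains of the interferon gamma receptor, and of Il10rb, a shared chain of interleukin-10 type receptors. Ifngr1 was 45.4 ± 7.39 RPM in WT and 63.1 ± 13.1 RPM in KO, a relative log2 fold change of 0.33 (n = 4 each, limma adjusted p = 0.199). Ifngr2 had 0.30 (limma adjusted p = 0.241) and Il10rb 0.27 (limma adjusted p = 0.255). The groups overlapped for all 3.

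Of the kinases and factors outside the 10, Tyk2 had a relative log2 fold change of -0.07 (limma adjusted p = 0.896) and Jak3 of -0.05 (limma adjusted p = 0.897). Stat2, a factor of the interferon response, was 7.33, 6.01, 5.13 and 5.99 RPM in WT 1 to WT 4 and 7.72, 8.80, 7.67 and 8.65 RPM in KO 1 to KO 4. In unscaled RPM all KO libraries were above all WT libraries. The unshifted log2 fold change of 0.38 did not pass (limma adjusted p = 0.289), and the relative one was 0.25. The TMM factors were 0.948 for WT 1 and 1.14 for KO 3. Division by them puts KO 3 below WT 1, so the groups of Stat2 then overlap. Stat6, the factor of interleukin-4 signalling, stood at -0.04 (limma adjusted p = 0.792).

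Among inhibitors, Socs7 was the one whose groups did not overlap. It was 94.6, 98.3, 107 and 105 RPM in WT 1 to WT 4 and 71.3, 83.1, 79.8 and 91.9 RPM in KO 1 to KO 4. Its relative log2 fold change was -0.44 (limma adjusted p = 0.246). The adjusted p was 0.102 in limma after TMM rescaling and 0.109 in edgeR. DESeq2 on recovered reads gave an adjusted p = 0.0455, where 157 of all genes were called lower against 55 in edgeR. Socs4 (0.04, limma adjusted p = 0.704) and Socs6 (0.15, limma adjusted p = 0.428) did not pass. Nor did the adaptors Sh2b1, which enhances JAK2 activity (-0.43, limma adjusted p = 0.383), and Sh2b3, which restrains it (0.25, limma adjusted p = 0.301), or the phosphatase Ptpn6 (0.29, limma adjusted p = 0.453).

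Of 11 tested response genes of STAT3 and cytokines, 0 passed, beside the same 0.523% and 0.28% of all genes. Mcl1, an anti-apoptotic BCL2 relative, was 76.9, 75.6, 78.8 and 90.0 RPM in WT 1 to WT 4 and 111, 117, 129 and 112 RPM in KO 1 to KO 4. These groups were fully apart, with a relative log2 fold change of 0.42. The limma adjusted p of 0.0505, just above the threshold, belongs to the unshifted value of 0.54. The adjusted p was 0.0943 in limma after TMM rescaling, 0.102 in edgeR and 0.0302 in DESeq2. Junb, an AP-1 factor, had 0.56 (limma adjusted p = 0.176), with KO 1 at 47.0 RPM and KO 2 to KO 4 at 18.2 to 24.1 RPM. Pim1, a kinase induced by STAT factors, had -0.55 (limma adjusted p = 0.354). It was 48.2 RPM in KO 3 and 21.5 to 23.9 RPM in the other KO libraries, which lay below all WT libraries.

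Igfbp7, a secreted protein of the IGF binding family that is known in vessel walls, was 79.7, 68.8, 60.5 and 77.6 RPM in WT 1 to WT 4. It was 108, 111, 133 and 103 RPM in KO 1 to KO 4. Every KO library lay above every WT library, and the relative log2 fold change was 0.54 (SE 0.14). The limma adjusted p of 0.0320 belongs to the unshifted value of 0.66. The call held in 9 of the 19 alternative settings, with relative fold changes of 0.45 to 0.64. It was lost in edgeR (adjusted p = 0.0531), with the replicate block (limma adjusted p = 0.0608) and with no filter (limma adjusted p = 0.199). The limma adjusted p was 0.319 without both WT 3 and KO 3. With 1 library left out it was 0.0787 without KO 1, 0.0745 without KO 2, 0.101 without KO 3, 0.0968 without WT 2, 0.153 without WT 3 and 0.0544 without WT 4, and the call held without KO 4 or WT 1. Stc2, an inhibitor of the protease that frees IGF from its binding proteins, was 0.987, 0.334, 0.285 and 0.324 RPM in WT 1 to WT 4 and 2.14, 1.89, 1.96 and 1.51 RPM in KO 1 to KO 4. No fold change or p is read for Stc2, since it passed the filter through KO alone and 3 WT libraries lay under the floor of 3 reads. Igfbp3 was 50.4 ± 20.8 RPM in WT and 69.2 ± 13.1 RPM in KO (SD, n = 4 each; 0.40, limma adjusted p = 0.300).

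**Figure D4:**
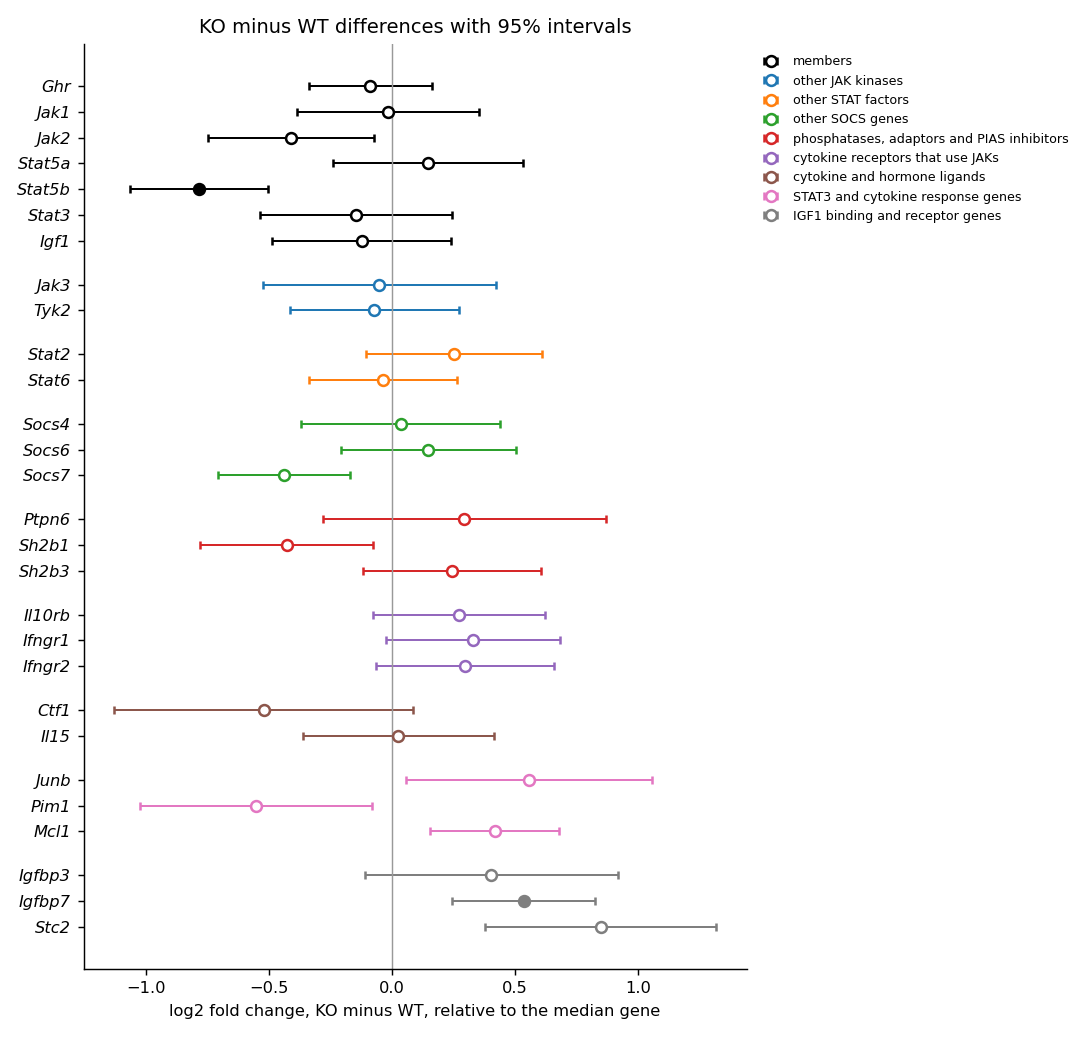
Relative log2 fold change, KO minus WT (horizontal axis), of the 7 genes above the filter and the other pathway genes with the 3 smallest p-values in each list (rows, coloured by list). Bars are 95% intervals shifted by the median gene, and filled symbols mark a limma adjusted p under 0.05 in the unshifted fit. Stat5b at -0.78 and Igfbp7 at 0.54 are the filled symbols, and Stc2 passed the filter through KO alone.

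Markers of other cells were read beside Stat5b and Igfbp7. Their sums and means are unscaled RPM, on which the median gene tested was 0.13 higher in KO (log2). The share of all genes with a higher mean in KO is not given here, so counts of higher means are not read as changes in cell types. The median relative log2 fold change of the tested markers was 0.34 for endothelial, 0.11 for macrophage, -0.02 for fibroblast and -0.40 for muscle fibre lists. The summed RPM of 10 endothelial markers was 402 to 566 in WT and 584 to 775 in KO, without overlap before rescaling. WT 4 at 566 RPM and KO 4 at 584 RPM had TMM factors of 1.003 and 1.041. Division by those factors puts KO 4 below WT 4, so the groups then overlap. Of these markers, 10 of 10 had the higher mean in KO, none at 0. The 7 muscle fibre markers all had the lower mean in KO, and their sums overlapped. All 7 tendon markers also had the lower mean in KO (sums of 142 to 234 RPM in WT and 77.7 to 211 RPM in KO), and the 7 had a median relative log2 fold change of -0.52. Of these, Scx, a tendon transcription factor, fell from 19.7 ± 2.56 to 8.77 ± 2.55 RPM (SD, n = 4 each; limma adjusted p = 0.0164) without overlap. The sums of 10 macrophage markers (70.3 to 124 RPM in WT, 95.7 to 143 RPM in KO) overlapped, with the higher mean in KO for 7 of 10. Among them Cd68, a lysosomal protein, rose from 3.92 ± 0.865 to 9.95 ± 2.97 RPM (SD, n = 4 each; limma adjusted p = 0.0192) without overlap. The sums of 9 fibroblast markers (1629 to 2030 RPM in WT, 1485 to 2306 RPM in KO) overlapped, with the higher mean in KO for 6 of 9. The 7 adipocyte markers summed to 174 to 246 RPM in WT and 297 to 356 RPM in KO. Of these sums Fabp4, also made by endothelial cells, held 194 and 302 RPM on average and was called higher (limma adjusted p = 0.0404). The mean was higher in KO for 4 of the 7 adipocyte markers, Fabp4 among them, and lower for the others. Satellite cell, Schwann cell, smooth muscle, lymphocyte, neutrophil and erythroid sums overlapped. The smooth muscle sums (6960 to 11833 RPM in WT, 5475 to 8938 RPM in KO) were mostly Acta2, at 8779 and 6530 RPM on average. These sums therefore say little of the other smooth muscle markers. The mean was higher in KO for 3 of 6 satellite cell, 3 of 5 Schwann cell, 4 of 6 smooth muscle, 3 of 6 lymphocyte and 4 of 5 neutrophil markers and for the 1 erythroid marker measured, and the neutrophil marker Ly6g was at 0 in all libraries. The part of these shifts in the values of Stat5b, Igfbp7 and the genes listed with them was not tested.

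**Figure D5:**
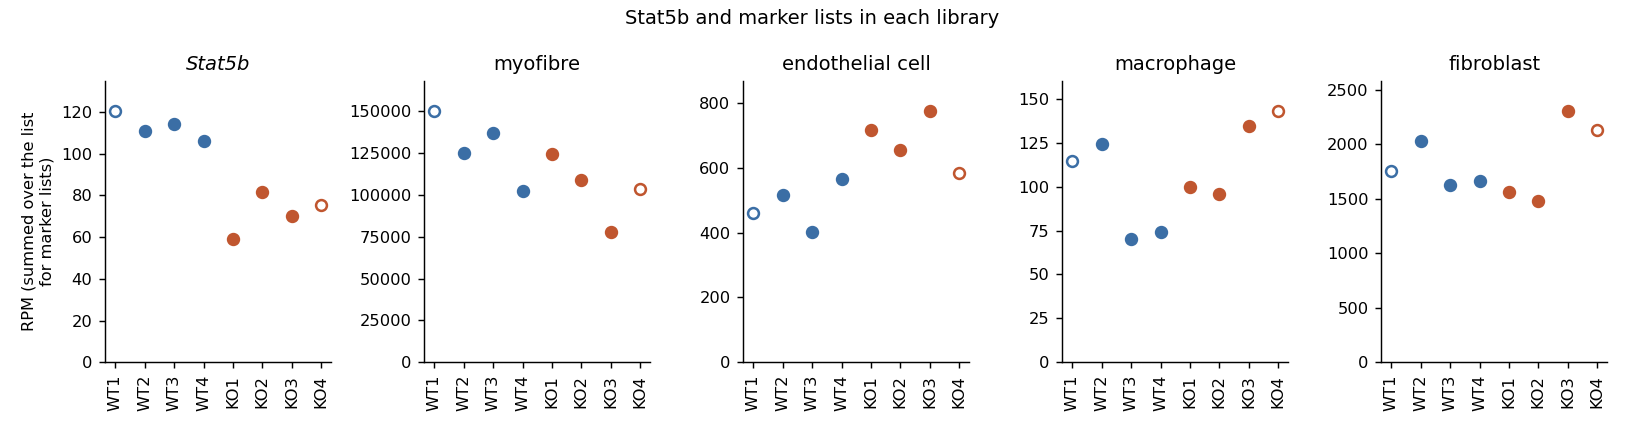
Stat5b level and summed levels of 4 marker lists in RPM (vertical axes, from 0) in each of the 8 libraries (horizontal axis). Points are single libraries, open where Xist was above 10 RPM. The KO libraries lie below WT for Stat5b and above WT for the endothelial sum (584 to 775 against 402 to 566 RPM), and overlap WT for the other 3 lists. All values are unscaled RPM, and the endothelial sums of WT 4 and KO 4 change order with TMM rescaling.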

How the data were processed

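RNA was prepared with TriZol and its DNA digested, and libraries were made on an Ion Chef for the Ion AmpliSeq Transcriptome Mouse panel, per the labels' protocols. The authors deposited 1 table of RPM, scaled to 1000000 reads per library. The submitters' processing notes name Transcriptome Analysis Console; aligner, genome build and read filtering were not given in the sources used here. Groups and replicate numbers came from the sample titles, and columns were matched by the barcode names in the labels. The 10 genes and all lists were chosen with earlier results of these data known.

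All RPM values (100%) were whole multiples of 1 read within 0.05 reads, which gave the totals. Amplicon reads carry no molecular identifiers, so floors cover counting error only, and p-values reflect only how far these libraries spread, which may be technical. Pairs of libraries of a group all differed by more than sampling noise (lowest chi-square over its degrees of freedom 8.21).

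Genes that reached 1 RPM in 4 or more libraries were fitted with limma 3.58.1 (R 4.3.3) after a log2(RPM + 1) step (two-sided, variance trend, Benjamini-Hochberg over 11087 genes, adjusted p under 0.05). Changes of low genes are understated on this scale. Relative fold changes and their intervals are shifted by the median gene; SE and p come from the unshifted fit. Sdhc was tested with an exact permutation in scipy 1.17.1 over 70 assignments. The genes named are the 10, every other pathway gene called, and the 3 with the smallest p in each list; genes named outside this rule (ligands below the filter, neighbours of Stat5b, Fabp4, Scx, Cd68) were chosen after their values were seen. Alternatives were TMM rescaling, pseudocounts of 0.5 and 5 RPM, no filter and a filter of 5 RPM, edgeR 4.0.16 and DESeq2 1.42.0 on recovered reads, a replicate block, a term for Xist above 10 RPM, the 6 libraries below it, omission of WT 3 and KO 3, and omission of each library. The fits were tested on simulated data. Figures were drawn with matplotlib 3.10.9.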

Additional observations from a re-analysis of the deposited data

Results flagged for a closer look

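In 4 of 63 groups of 4 libraries (the 10 genes, Sdhc and the named pathway genes, without Cish in WT, where all values are 0), 1 library stood apart from the other 3 by more than Dixon's critical value for 4 samples; chance gives about 1 in 20. Socs3 was 0.285 RPM in WT 3 and 0 in the other WT libraries, which is 2 reads. Ctf1 was 6.04 RPM in KO 4, above KO 1 to KO 3 at 1.79 to 2.30 RPM. Pim1 reached 48.2 RPM in KO 3, with KO 1, KO 2 and KO 4 at 21.5 to 23.9 RPM. Stc2 reached 0.987 RPM in WT 1, with WT 2 to WT 4 at 0.285 to 0.334 RPM.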

How the results depend on the processing

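Stat5b kept its direction in all 19 alternatives and lost its call in 7, as given above. Near-zero values changed sign: Jak1 was 0.021 with a pseudocount of 5 RPM, and ran from -0.15 to 0.084 with 1 library left out, 4 of 8 values being above 0. Stat5a ran from -0.025 without WT 4 to 0.24 without WT 1. Ghr, Igf1, Jak2 and Stat3 kept their sign. The cause of these shifts was not tested. Of the 10 genes, the count called lower was 0 with no filter and 0 without WT 3 and KO 3, and 0 to 1 with 1 library left out; with TMM rescaling 2 were lower without overlap against 1.

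Over all genes the calls (58 higher, 31 lower) became 65 lower with TMM, 5 higher and 7 lower with no filter, 37 and 55 in edgeR, 157 lower in DESeq2, 165 and 70 with a term for Xist, 257 and 146 in the 6 libraries low in Xist, and 7 and 2 without WT 3 and KO 3. Leaving out 1 library gave 13 to 185 higher and 3 to 85 lower, the fewest without WT 3 and the most without KO 4. Other pathway genes called higher (1) became 2 with a pseudocount of 5 RPM, 0 with no filter, 0 in edgeR, 2 in DESeq2, 0 with the replicate block, 3 with a term for Xist, 4 in the 6 libraries, 0 without WT 3 and KO 3, and 0 to 4 with 1 library left out (Stc2, which passed the filter through KO alone, is among them in the fit with a term for Xist, in the 6 libraries, and without KO 4 or WT 1). DESeq2 called 1 lower (Socs7).

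The Sdhc difference of -670 RPM was -711 to -637 RPM with 1 library left out, at an exact permutation p = 0.0571, the smallest that 3 against 4 allows. In the 6 libraries it was -718 RPM (exact permutation p = 0.1, the smallest that 3 against 3 allows).

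Same-numbered WT and KO libraries did not deviate together (r of -0.0085, 0.079, -0.121 and -0.0936), so the numbers are not read as pairs. With the replicate block, 81 genes were called against 89, Stat5b had a limma adjusted p = 0.0472, and Igfbp7 lost its call.

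Socs2, Socs3 and Cish had 56, 10 and 3 reads over all libraries, which limits what can be read from them. Whether depth, the amplicon or the level of the RNA lay behind these counts was not tested. One amplicon per gene cannot separate isoforms, mRNA levels do not show phosphorylation, and RPM of different genes come from different amplicons, so levels were not compared between genes.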
